A study of Mus musculus with 6 samples.

Results

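A group of 37 genes of glycolysis and the hypoxia response was examined in whole prostate tumours of mice, chosen by gene symbol in a table of 21718 genes. The group holds 16 glycolytic enzymes, 3 transporters of glucose and lactate, 3 regulators of glycolytic flux, 13 targets of the hypoxia-inducible factors (HIFs) that are not glycolytic, and the HIF alpha subunits Hif1a and Epas1. All 37 were found and all 37 passed the filter on low counts, with 42 to 14140 counts in a sample. The tumours came from castrated mice of a genetic prostate tumour model. Every mouse received 900 rad and donor marrow at 6 weeks of age, was castrated at 8 weeks, and had its tumour taken 16 weeks after castration. In 3 samples, called F10-deleted here, the marrow donors were F10fl/fl; LysM-Cre+, so that the floxed gene of coagulation factor X is a target for deletion in cells that express the myeloid lysozyme gene, chiefly macrophages, monocytes and neutrophils. In the other 3, called F10-intact, the donors were F10fl/fl without the Cre. By the labels the recipients were of the same model in both groups, which thus differ in donor marrow. Some host macrophages of a tissue can survive irradiation, and the share of donor cells in these tumours is not given in the sources used here. The design thus sets tumours with F10 targeted in marrow-derived myeloid cells against tumours without that targeting. Whether every sample came from its own mouse is not stated, so each p-value reflects the spread among these samples only, which may in part be technical.

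Glycolysis converts glucose to pyruvate in the cytosol, and lactate dehydrogenase turns pyruvate into lactate when mitochondria do not take it up. When oxygen is scarce, the prolyl hydroxylases that mark HIF alpha proteins for destruction lose activity, and the stabilised HIF proteins pair with ARNT and bind the short DNA motif called the hypoxia response element near their target genes. HIF1A is known for driving glycolytic enzymes and EPAS1, also called HIF-2 alpha, for genes of vessels and iron handling. Because HIF activity is set mainly by protein stability, the mRNA level of a HIF gene is not a measure of it.

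The libraries held 9237308 to 11559980 counts in the F10-deleted samples and 10520465 to 11821588 in the F10-intact samples. The targeted gene F10 had 7, 4 and 9 counts in F10-deleted samples 1, 3 and 4 and 2, 6 and 17 counts in F10-intact samples 1, 3 and 4, too few in whole tissue to check the group labels. F10-intact sample 4 stood apart from the other 5 on the leading principal component, which carried 49.1% of the variance. Without it, the log2 fold changes of the 10 members with separated groups were 0.55 for Hif1a, 0.45 for Epas1, 1.09 for Car9, 1.495 for Car12, 0.74 for Egln3, 0.46 for Vegfa, 1.07 for Pfkm, 0.33 for Slc16a1, 0.41 for Pfkfb3 and 0.32 for Pdk1. The labelled prostate tissue was checked against its epithelial markers: 8 luminal prostate markers summed to 4722 to 5327 CPM (counts scaled to library size) in the F10-deleted samples and 4570 to 5967 CPM in the F10-intact samples, led by Krt8, Krt18, Epcam and Cdh1, none of them at 0. Hoxb13 (35.1 to 60.8 CPM in the F10-deleted samples, 76.0 to 211 CPM in the F10-intact samples) and Pbsn (4.52 to 20.6 CPM in the F10-deleted samples, 37.2 to 62.6 CPM in the F10-intact samples) had groups that did not overlap.

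In the F10-deleted tumours the HIF alpha genes, the HIF targets Car9, Car12, Egln3 and Vegfa, the muscle-type phosphofructokinase gene Pfkm, and Slc16a1, Pfkfb3 and Pdk1 were higher in every sample than in any F10-intact sample. The main glycolytic enzymes and the glucose transporter Slc2a1 overlapped between the groups. Of the 37 genes, 0 passed the edgeR quasi-likelihood test at a Benjamini-Hochberg adjusted p under 0.05 over all 15963 genes tested, where 0.0439% of all genes passed. The smallest edgeR adjusted p among the members was 0.094, for Pfkm. At an unadjusted p under 0.05, 9 members had higher values in the F10-deleted tumours and 0 had lower values, which is 24.3% of the members, while 6.15% of all tested genes were higher and 4.74% lower by that measure. The groups did not overlap for 10 members, or 27.0%, all with F10-deleted above, against 8.99% of all tested genes with F10-deleted above and 7.67% with F10-deleted below. The log2 fold change was above 0 for 26 of 37 members (70.3%, against 47.3% of all genes), and its median was 0.18 against -0.02 for all genes. DESeq2, run as an alternative, called 4 members at its adjusted p under 0.05, namely Pfkm, Car9, Car12 and Egln3. It called 2.75% of all genes in either direction, and limma-voom called 0 members. In simulated counts, 22 of 150 DESeq2 calls were false, against 5 of 120 edgeR calls. With the replicate number as a block, edgeR called 0 members and 0.0125% of all genes. Fold changes throughout are F10-deleted over F10-intact from edgeR, and CPM values carry edgeR's TMM scaling.

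**Figure D1:**
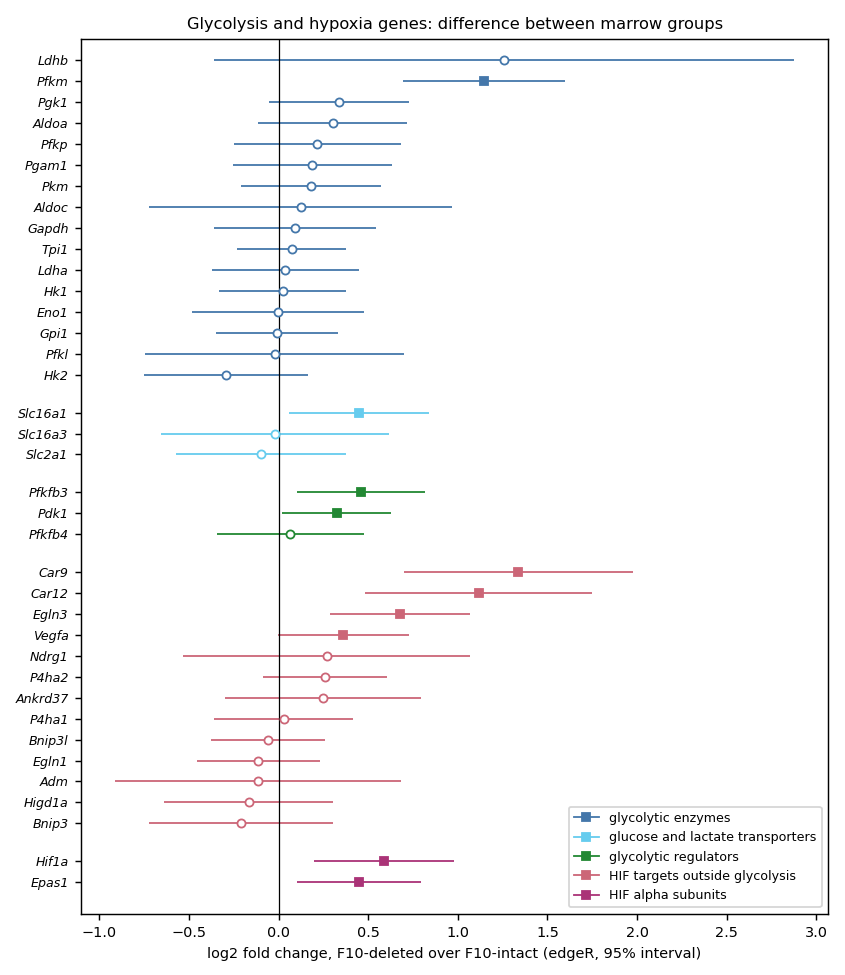
Log2 fold change (x axis) of each of the 37 genes with its 95% interval from the edgeR fit, grouped by role. Filled squares mark the 10 genes whose samples did not overlap between the groups, and open circles the other 27. Squares mark 2 of 2 HIF alpha subunits, 4 of 13 HIF targets, 2 of 3 regulators, 1 of 3 transporters and 1 of 16 glycolytic enzymes. Over all tested genes, 8.99% had separated groups with F10-deleted above and 7.67% with F10-deleted below.

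Both HIF alpha genes had more RNA in the F10-deleted tumours by their values, though neither passed the test over all genes. Hif1a (ENSMUSG00000021109, chromosome 12, 73901375 to 73947530, plus strand, GRCm38) had 119, 160 and 141 CPM in F10-deleted samples 1, 3 and 4, against 81.5, 109.9 and 88.4 CPM in F10-intact samples 1, 3 and 4. The lowest F10-deleted value lay above the highest F10-intact value. Its means were 140.1 ± 20.2 CPM in the F10-deleted group and 93.3 ± 14.8 CPM in the F10-intact group (SD, n = 3 each), a log2 change of 0.59 ± 0.17 (SE, 95% interval 0.20 to 0.98; edgeR gave an adjusted p of 0.263). Epas1 (ENSMUSG00000024140, chromosome 17, 86753700 to 86833410, plus strand) had 46.4, 50.5 and 39.1 CPM in the F10-deleted samples and 35.5, 30.9 and 33.3 CPM in the F10-intact samples. Its groups were also apart, at a log2 change of 0.45 ± 0.15 (SE; edgeR gave an adjusted p of 0.327). On the length-scaled TPM scale, Hif1a made up 70.7% to 77.2% of the summed TPM of Hif1a, Epas1 and Hif3a in the F10-deleted samples and 68.1% to 76.9% in the F10-intact samples, and those ranges overlapped. Epas1 is a gene of endothelial cells among others, and 10 endothelial markers summed to 82.4 to 116.6 CPM in the F10-deleted samples and 42.2 to 91.8 CPM in the F10-intact samples, with none at 0 in any sample. The part of such cells in the Epas1 values was not tested, and in bulk tissue a change in the number of cells of a type cannot be told apart from a change in RNA per cell.

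**Figure D2:**
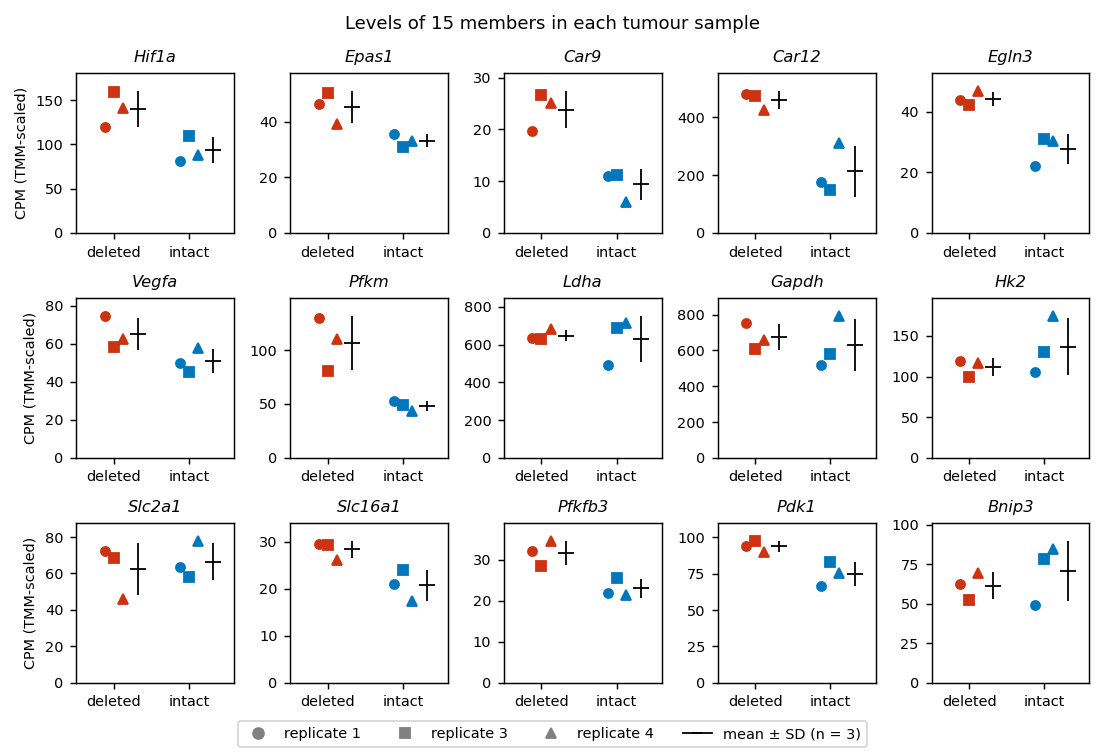
CPM (y axis, from 0) of 15 members in the F10-deleted samples (red) and the F10-intact samples (blue), with marker shape giving the replicate number and black bars the mean ± SD of 3 samples. The groups are apart for Hif1a, Epas1, Car9, Car12, Egln3, Vegfa, Pfkm, Slc16a1, Pfkfb3 and Pdk1, and overlap for Ldha, Gapdh, Hk2, Slc2a1 and Bnip3.

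Among the 13 HIF targets outside glycolysis, 8 had log2 fold changes above 0 and 5 below, and 4 (30.8%) did not overlap between the groups, all with F10-deleted above. Over all genes 47.3% had values above 0 and 8.99% had separated groups with F10-deleted above. Their median log2 fold change was 0.25. Leaving out F10-intact sample 4 gave 0.04, and leaving out F10-deleted sample 1 gave 0.16. The targets with the widest separation were the membrane carbonic anhydrases, enzymes that hydrate carbon dioxide at the cell surface and handle acid there. Car9 (ENSMUSG00000028463, chromosome 4, 43506966 to 43513729, plus strand) had 19.7, 26.6 and 25.1 CPM in the F10-deleted samples, against 11.1, 11.2 and 5.91 CPM in the F10-intact samples. The F10-deleted values all exceeded the F10-intact values, of which sample 4 was the lowest. Car9 averaged 23.8 ± 3.62 CPM in the F10-deleted group and 9.40 ± 3.03 CPM in the F10-intact group (SD, n = 3 each), a log2 change of 1.34 ± 0.28 (SE; edgeR gave an adjusted p of 0.131). DESeq2 gave Car9 a log2 change of 1.35 at an adjusted p of 0.00104, and over all alternatives its adjusted p ranged up to 0.428. An antisense gene, Gm12454, lies across Car9 on the other strand with 52 to 62 counts in the F10-deleted samples and 32 to 69 counts in the F10-intact samples, and the strand setting of the counting is not given in the sources used here.

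Car12 (ENSMUSG00000032373, chromosome 9, 66713686 to 66766845, plus strand) had 481, 474 and 426 CPM in the F10-deleted samples and 178, 148 and 312 CPM in the F10-intact samples. F10-intact sample 4 was the closest to the F10-deleted samples, unlike for Car9. The means were 460.4 ± 30.3 CPM in the F10-deleted group and 212.6 ± 87.0 CPM in the F10-intact group (SD, n = 3 each). The log2 fold change was 1.115 ± 0.27 (SE; edgeR gave an adjusted p of 0.199). Leaving out F10-intact sample 4 gave 1.495, which passed the test (edgeR adjusted p = 0.0489). How many of all genes passed in that refit is not given here, so the pass does not set Car12 apart from other genes. Over the alternatives the adjusted p of Car12 ranged from 0.00497 with DESeq2 to 0.458. On the TPM scale, which divides by summed exon length, Car12 stood above Car9 in both groups. In the F10-deleted group Car12 averaged 195 TPM and Car9 33.3 TPM. The averages in the F10-intact group were 81.0 TPM for Car12 and 12.2 TPM for Car9.

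Egln3, a HIF prolyl hydroxylase that is itself a HIF target (ENSMUSG00000035105, chromosome 12, 54178981 to 54203860, minus strand), had 43.9, 42.2 and 46.9 CPM in the F10-deleted samples and 22.1, 30.9 and 30.3 CPM in the F10-intact samples. The F10-deleted samples lay close together and above all F10-intact samples. The log2 fold change was 0.68 ± 0.17 (SE; edgeR gave an adjusted p of 0.205), and DESeq2 called it at an adjusted p of 0.0422, with alternatives reaching 0.5003. Its relative Egln1, the main oxygen-sensing hydroxylase, averaged 69.1 ± 8.32 CPM in the F10-deleted group and 74.7 ± 8.42 CPM in the F10-intact group (SD, n = 3 each), and those groups overlapped at a log2 change of -0.11. Vegfa, the growth factor of blood vessels, had 74.8, 58.5 and 62.8 CPM in the F10-deleted samples and 49.9, 44.9 and 57.6 CPM in the F10-intact samples. F10-deleted sample 3 stood barely above F10-intact sample 4, and the log2 fold change was 0.36 ± 0.16 (SE; edgeR gave an adjusted p of 0.459).

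The other 9 HIF targets overlapped between the groups, with log2 fold changes of -0.21 to 0.27. Bnip3, a mitophagy receptor, had 62.2, 52.5 and 69.2 CPM in the F10-deleted samples and 49.1, 78.5 and 84.8 CPM in the F10-intact samples. F10-intact samples spanned the whole F10-deleted range, and the log2 fold change was -0.21 ± 0.22 (SE; edgeR gave an adjusted p of 0.797). The values for the others were -0.06 for Bnip3l, a relative of Bnip3, -0.11 for Adm, the vasodilator adrenomedullin, -0.17 for Higd1a, a small mitochondrial protein, 0.03 for P4ha1 and 0.26 for P4ha2, catalytic subunits of collagen prolyl hydroxylase, 0.25 for Ankrd37, and 0.27 for Ndrg1, a stress-response protein. Ndrg1 stood at 27.9 CPM in F10-intact sample 4, against 53.2 to 76.9 CPM in the F10-deleted samples and 60.3 and 75.4 CPM in F10-intact samples 3 and 1, and its log2 fold change was -0.05 without that sample. The 95% intervals of these 9 genes, with SEs from 0.14 to 0.34 on the log2 scale, do not show that their levels were equal.

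The upstream sequences of 5 members are shown so that the targets with separated groups can be set against targets with overlapping groups. RefSeq promoters on GRCm38.p6 were found for 34 of the 37 members, and Bnip3l, Ndrg1 and Epas1 had no entry used here. The core of the hypoxia response element was searched as ACGTG and GCGTG on both strands, so as CACGT and CACGC too, in the 250 bases before each RefSeq start, with overlapping matches counted separately so that CACGTG counts as 2. The letters of each match are in capitals, and each sequence runs 5′ to 3′ on the gene's strand up to the base before its start. Car9, Car12 and Egln3 had separated groups, and Ldha and Bnip3 had overlapping ones.
Car9 (chr4:43506776-43507025, plus strand): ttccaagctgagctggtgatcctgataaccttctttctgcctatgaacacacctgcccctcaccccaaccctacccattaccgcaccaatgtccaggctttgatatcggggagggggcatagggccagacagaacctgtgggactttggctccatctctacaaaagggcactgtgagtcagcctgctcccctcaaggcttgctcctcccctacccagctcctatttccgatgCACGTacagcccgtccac
Car12 (chr9:66713436-66713685, plus strand): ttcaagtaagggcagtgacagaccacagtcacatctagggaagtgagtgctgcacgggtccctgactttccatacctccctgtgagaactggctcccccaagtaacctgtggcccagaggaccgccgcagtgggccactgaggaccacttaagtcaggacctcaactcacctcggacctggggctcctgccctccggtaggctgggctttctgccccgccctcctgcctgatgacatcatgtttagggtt
Egln3 (chr12:54203875-54204124, minus strand): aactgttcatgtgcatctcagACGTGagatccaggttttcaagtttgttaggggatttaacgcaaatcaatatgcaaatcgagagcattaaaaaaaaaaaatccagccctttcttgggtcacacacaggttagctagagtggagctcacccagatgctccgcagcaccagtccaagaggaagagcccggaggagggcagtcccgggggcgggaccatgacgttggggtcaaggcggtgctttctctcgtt
Ldha (chr7:46845554-46845803, plus strand): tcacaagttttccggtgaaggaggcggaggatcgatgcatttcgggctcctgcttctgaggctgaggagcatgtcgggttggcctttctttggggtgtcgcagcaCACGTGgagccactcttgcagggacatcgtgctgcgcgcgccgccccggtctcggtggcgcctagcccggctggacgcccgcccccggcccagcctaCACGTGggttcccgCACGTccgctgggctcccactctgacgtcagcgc
Bnip3 (chr7:138909507-138909756, minus strand): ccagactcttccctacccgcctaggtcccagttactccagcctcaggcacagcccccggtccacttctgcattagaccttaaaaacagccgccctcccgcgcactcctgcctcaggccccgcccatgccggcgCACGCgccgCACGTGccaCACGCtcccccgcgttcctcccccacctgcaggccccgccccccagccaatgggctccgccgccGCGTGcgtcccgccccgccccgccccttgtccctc
Car9 held 1 match, beginning at base -18, Egln3 held 1, at base -229, and Car12 held 0 in this window, while Ldha and Bnip3 held 5 each. Over the members, 31 of 34 (91.2%) held at least 1 match in at least 1 listed promoter, against 6862 of 11694 tested genes with an entry (58.7%). The match was present for 8 of 9 members with separated groups and 23 of 25 members with overlapping groups, 88.9% and 92.0%. The median GC content was 62.3% for the members' promoters and 59.2% for those of tested genes with an entry. A match is a description of letters and not of binding.

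Of 16 glycolytic enzymes, 12 had log2 fold changes above 0 and 4 below, with a median of 0.11 against -0.02 for all genes. The groups were separated for 1 of 16 (6.25%), with F10-deleted above, a share near the 8.99% of all genes with F10-deleted above. The median was 0.22 without F10-deleted sample 4 and between 0.08 and 0.17 without any other single sample. Gapdh, the dehydrogenase midway along the pathway, had 751, 609 and 661 CPM in the F10-deleted samples and 521, 578 and 794 CPM in the F10-intact samples. The widest values on both sides belonged to the F10-intact samples, and the log2 fold change was 0.09 ± 0.20 (SE; edgeR gave an adjusted p of 0.911). Ldha, the lactate dehydrogenase subunit that favours lactate production, had 634, 629 and 681 CPM in the F10-deleted samples and 493, 690 and 713 CPM in the F10-intact samples. The F10-deleted samples lay within the range of the F10-intact samples, at a log2 change of 0.04 ± 0.18 (SE, 95% interval -0.37 to 0.45; edgeR gave an adjusted p of 0.966).

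Hk2, the hexokinase that many tumours induce, had 119, 99.1 and 117 CPM in the F10-deleted samples and 105, 130.1 and 175 CPM in the F10-intact samples. F10-intact sample 4 was the highest, and the log2 fold change of -0.29 ± 0.20 (SE; edgeR gave an adjusted p of 0.652) was -0.08 without it. Hk1, the widely expressed hexokinase, was at 0.02 and Gpi1, glucose phosphate isomerase, at -0.01. Aldoa, the main aldolase, had 1328, 1035 and 1206 CPM in the F10-deleted samples and 924, 850.1 and 1123 CPM in the F10-intact samples, with F10-intact sample 4 inside the F10-deleted range, at a log2 change of 0.30 ± 0.18 (SE; edgeR gave an adjusted p of 0.607). Pgk1, phosphoglycerate kinase, had 162, 178 and 178 CPM in the F10-deleted samples and 111, 168 and 131 CPM in the F10-intact samples, so F10-intact sample 3 alone overlapped, at 0.34 ± 0.17 (SE; edgeR gave an adjusted p of 0.53). The remaining log2 fold changes were 0.12 for Aldoc, 0.07 for Tpi1, 0.19 for Pgam1, -0.00265 for Eno1, 0.18 for Pkm, 0.22 for Pfkp and -0.02 for Pfkl. The counts of Pkm do not separate its splice forms. Mouse Gapdh, Ldha, Pgk1, Eno1 and other enzyme genes have processed pseudogenes, and how reads shared with these were counted is not given in the sources used here.

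Ldhb, the lactate dehydrogenase subunit that favours pyruvate, rested on a single library. It had 51.6, 184.7 and 48.2 CPM in F10-deleted samples 1, 3 and 4, against 62.6, 40.5 and 15.9 CPM in the F10-intact samples. F10-deleted sample 3 was far above every other sample. The log2 fold change of 1.26 ± 0.68 (SE; edgeR gave an adjusted p of 0.574) was 0.36 without F10-deleted sample 3.

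**Figure D3:**
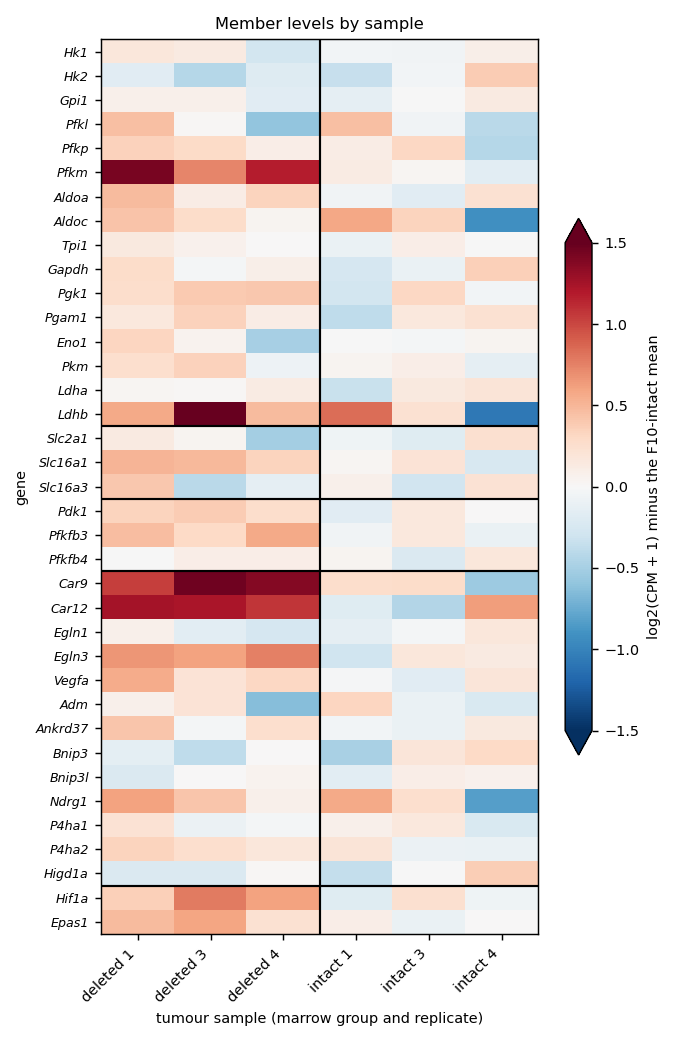
Level of each member (rows) in each sample (columns), as log2(CPM + 1) minus the mean of the F10-intact samples, with colours limited to -1.5 and 1.5 and black lines between the roles. In all 3 F10-deleted samples 20 of the 37 members are above 0, among them members with overlapping groups such as Ldha and Tpi1. The share of all genes above 0 in this way was not computed, so the count does not set the members apart. Ldhb in F10-deleted sample 3 reaches 2.39.

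Pfkm, the phosphofructokinase subunit that dominates in skeletal muscle (ENSMUSG00000033065, chromosome 15, 98092589 to 98132451, plus strand), was the enzyme gene that stood apart. It had 130.2, 80.3 and 109.9 CPM in the F10-deleted samples and 52.4, 49.2 and 43.0 CPM in the F10-intact samples. The groups were well apart, with F10-deleted sample 3 the lowest of its group. The means were 107 ± 25.1 CPM in the F10-deleted group and 48.2 ± 4.77 CPM in the F10-intact group (SD, n = 3 each), a 2.21-fold difference, or a log2 change of 1.15 ± 0.19 (SE; edgeR gave an adjusted p of 0.094). DESeq2 called it at an adjusted p of 7.83e-05, and the adjusted p over all alternatives reached 0.36. The liver-type and platelet-type subunits Pfkl and Pfkp had overlapping groups. Pfkl averaged 87.3 ± 30.8 CPM in the F10-deleted group and 88.6 ± 27.2 CPM in the F10-intact group (SD, n = 3 each). Within the summed TPM of the 3 subunits, Pfkm took 57.1% to 71.9% in the F10-deleted samples and 41.4% to 50.2% in the F10-intact samples.

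Skeletal muscle markers differed between the groups beside Pfkm. The 16 markers, contractile and calcium-handling genes of muscle fibres, summed to 2324, 957 and 2233 CPM in F10-deleted samples 1, 3 and 4, against 152, 28.5 and 18.6 CPM in F10-intact samples 1, 3 and 4. Pfkm and Pygm, the muscle glycogen phosphorylase, put all 6 samples at the rank they have in that sum, while Eno3 did so for 4 samples, Pgam2 and Aldoa for 2 each and Ldha for 0. All 16 markers were in the table, and only Myh2 and Pvalb were at 0 in any sample. All 16 had separated groups with F10-deleted above, against 8.99% of all tested genes. Of the 16, edgeR called 2, against 0.0439% of all tested genes. Other muscle isoforms of the pathway, which are not among the 37, were also higher in the F10-deleted samples by their values. Eno3, the muscle enolase, had 148, 71.3 and 168 CPM in the F10-deleted samples and 33.4, 19.7 and 16.7 CPM in the F10-intact samples, a log2 change of 2.47 ± 0.39 (SE; edgeR gave an adjusted p of 0.0894). Pgam2, the muscle phosphoglycerate mutase, had counts of 337, 135 and 495 in the F10-deleted samples and of 24, 1 and 1 in the F10-intact samples, and Pygm had 117.6, 50.7 and 109 CPM in the F10-deleted samples and 18.1, 9.94 and 4.77 CPM in the F10-intact samples. Both had groups apart, with an edgeR adjusted p of 0.131 for Pgam2 and 0.103 for Pygm. Eno3 took 38.0% to 68.0% of the summed TPM of the 3 enolase genes in the F10-deleted samples and 12.8% to 22.9% in the F10-intact samples. The part of muscle RNA in the Pfkm result was not tested.

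**Figure D4:**
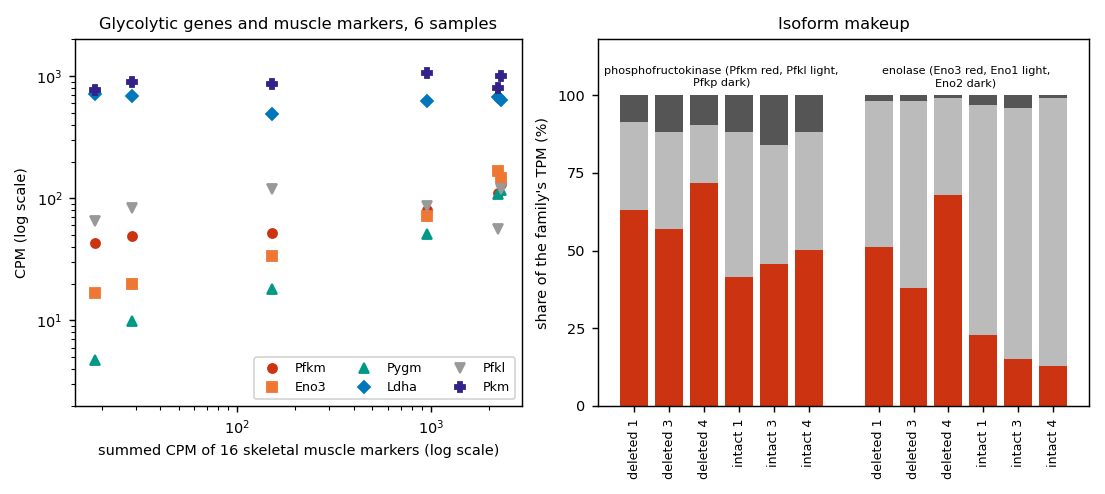
Left, CPM of 6 glycolytic or glycogen genes (y axis, log scale) against the summed CPM of 16 skeletal muscle markers (x axis, log scale), 1 point per gene and sample. Right, share of the summed TPM of the phosphofructokinase and enolase genes taken by each gene, 1 bar per sample. Pfkm, Eno3 and Pygm are highest in the 3 samples with the most muscle marker RNA, all F10-deleted, while Ldha and Pkm stay between 493 and 1069 CPM.

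Among the 3 transporters and 3 regulators, 3 had separated groups, all with F10-deleted above, where 8.99% of all tested genes did. Slc2a1, the glucose transporter GLUT1, had 72.6, 68.3 and 46.0 CPM in the F10-deleted samples and 63.3, 58.3 and 78.1 CPM in the F10-intact samples. The ranges overlapped, with F10-deleted sample 4 lowest, at a log2 change of -0.10 ± 0.20 (SE; edgeR gave an adjusted p of 0.913). Slc16a1, the lactate and pyruvate carrier MCT1, had 29.6, 29.3 and 26.2 CPM in the F10-deleted samples and 21.0, 23.9 and 17.3 CPM in the F10-intact samples. Its groups were separated at 0.45 ± 0.17 (SE; edgeR gave an adjusted p of 0.386), whereas Slc16a3, the lactate exporter MCT4, was at -0.02 with overlapping groups. Pfkfb3, which makes the activator of phosphofructokinase, had 32.03, 28.4 and 34.5 CPM in the F10-deleted samples and 22.0, 25.6 and 21.4 CPM in the F10-intact samples. The lowest F10-deleted value exceeded the highest F10-intact value, at a log2 change of 0.46 ± 0.15 (SE; edgeR gave an adjusted p of 0.327). Its relative Pfkfb4 was at 0.07. Pdk1, a kinase that inhibits pyruvate dehydrogenase, had 94.1, 97.7 and 89.9 CPM in the F10-deleted samples and 66.4, 83.2 and 75.2 CPM in the F10-intact samples. It averaged 93.9 ± 3.91 CPM in the F10-deleted group and 74.9 ± 8.40 CPM in the F10-intact group (SD, n = 3 each), with separated groups and a log2 change of 0.32 ± 0.13 (SE; edgeR gave an adjusted p of 0.422).

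Another 88 genes of the same pathways, in lists that hold no member and with 87 in the table, gave 0 calls with edgeR over all genes, 14 genes higher and 4 lower at an unadjusted p under 0.05 among 83 tested (21.7%, against 10.9% of all genes in either direction), and a median log2 fold change of 0.05. Of 24 further HIF targets, 5 were higher and 1 lower at that unadjusted level and 13 had values below 0, with a median of -0.04. Among all tested genes, 6.15% were higher and 4.74% lower at that level. Bhlhe40, a circadian repressor, averaged 133 ± 8.88 CPM in the F10-deleted group and 71.3 ± 18.4 CPM in the F10-intact group (SD, n = 3 each, log2 fold change 0.89, edgeR adjusted p = 0.144). Plod2, a collagen lysyl hydroxylase, had a negative log2 fold change of -1.09 ± 0.35 (SE; edgeR gave an adjusted p of 0.323), with 20.8 to 27.4 CPM in the F10-deleted samples and 28.3 to 81.0 CPM in the F10-intact samples.

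The HIF machinery had 0 of 10 tested genes at an unadjusted p under 0.05 by edgeR. Its smallest p belonged to Elob, an elongin of the VHL ubiquitin ligase, at -0.68, followed by Arnt, the HIF partner subunit, at 0.22, and Cited2, a competitor for the coactivator, at -0.30. The pentose phosphate list had 0 higher and 1 lower of 8, namely Taldo1, transaldolase, at -0.46, with Pgls at -0.35 and H6pd at -0.26. The pyruvate list had 2 higher of 13, with Pdk2 at -0.23. The 2 were Pdk4, a starvation-induced relative of Pdk1, at 1.85, and Dlat, a subunit of pyruvate dehydrogenase, at 0.30. At that unadjusted level 6.15% of all tested genes were higher and 4.74% lower, and counts this small do not set either list apart. Among 5 gluconeogenic genes, Pck1 had 203, 14 and 232 counts in the F10-deleted samples against 9, 2 and 5 in the F10-intact samples, Fbp2, the muscle fructose bisphosphatase, was at 0.92 and G6pc3, a ubiquitous glucose phosphatase, at -0.40. Pck1 is strongly expressed in fat, and 11 adipocyte markers summed to 265 to 346 CPM in the F10-deleted samples and 87.3 to 128 CPM in the F10-intact samples, with Lep and Retn at 0 in at least 1 sample. Of 9 adipocyte markers tested, 2 had separated groups with F10-deleted above, Fabp4 and Pparg, where 8.99% of all tested genes did. Fabp4 had 101, 115 and 141 CPM in the F10-deleted samples and 14.9, 13.03 and 9.75 CPM in the F10-intact samples (log2 fold change 3.24, edgeR adjusted p = 0.00741). Fabp4 was the largest part of the sum in each F10-deleted sample. In each F10-intact sample the largest part was Lipe, whose groups overlapped at a log2 fold change of -0.13. Adipoq, specific to fat cells, had 9.77, 1.18 and 17.4 CPM in the F10-deleted samples and 3.60, 0.686 and 0.207 CPM in the F10-intact samples, so its groups overlapped, with F10-deleted sample 3 low as it was for Pck1. Among 8 glycogen genes, Gys1, glycogen synthase, was at 0.40, beside Pygm. Hk3, the hexokinase of myeloid cells, averaged 4.17 ± 0.875 CPM in the F10-deleted group and 7.79 ± 3.25 CPM in the F10-intact group (SD, n = 3 each), a log2 change of -0.90 (edgeR adjusted p = 0.42).

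The levels of other cell markers were compared between the groups as well. The summed level of 5 basal epithelial markers was 2182 to 3640 CPM in the F10-deleted samples and 799 to 1943 CPM in the F10-intact samples, and that of 10 mitosis genes was 153 to 291 CPM in the F10-deleted samples and 102 to 123 CPM in the F10-intact samples. Macrophage and monocyte markers summed to 589 to 729 CPM in the F10-deleted samples and 578 to 798 CPM in the F10-intact samples, and the 7 neutrophil markers in the table to 89.99 to 121 CPM in the F10-deleted samples and 113 to 239 CPM in the F10-intact samples, with Ly6g at 0 in some. Among 6 fibroblast markers the sums were 1406 to 1489 CPM in the F10-deleted samples and 1238 to 1461 CPM in the F10-intact samples, mostly Dcn, whose groups overlapped at a log2 fold change of -0.13. The collagen genes of that list, Col1a1 at 1.21, Col1a2 at 0.89 and Col3a1 at 0.88, had separated groups with F10-deleted above, at edgeR adjusted p-values of 0.0868, 0.0846 and 0.138. The 5 red blood cell markers summed to 20.7 to 42.6 CPM in the F10-deleted samples and 25.4 to 57.7 CPM in the F10-intact samples. By gene, groups were separated with F10-deleted above for 3 of 5 basal markers and 10 of 10 mitosis genes. The same held for 4 of 10 endothelial markers and 0 of 10 macrophage and monocyte markers. Over all tested genes, 8.99% were separated with F10-deleted above and 7.67% with F10-deleted below. All 5 neutrophil markers tested had log2 fold changes below 0 with overlapping groups. Of these, 2 had an unadjusted edgeR p under 0.05, where 4.74% of all tested genes were lower at that level. The part of these cells in the members' values was not tested.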

How the data were processed

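Whole-tumour poly-A RNA was sequenced in 3 samples per group as stranded 120-base reads from one end of each fragment, per the labels. The authors deposited raw read counts per Ensembl gene. STAR 2.7.10a, the build GRCm38 and DESeq2 without a version are named, per the submitters' processing notes. No counting program, strand handling or annotation version is named in these sources. Symbols, coordinates and exon lengths came from GENCODE M21, which matched 21592 of 21718 identifiers. A second Aldoa identifier with 0 to 6 counts was left out. Of the members, 13 overlap another counted gene, 2 of them on the same strand.

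The counts were tested with edgeR 4.0.16 in R 4.3.3 (quasi-likelihood, robust, TMM, filterByExpr with a minimum count of 10, no covariate) over 15963 genes, with Benjamini-Hochberg adjustment and a threshold of 0.05. TPM used summed exon lengths and serves only comparisons between genes within a sample. Alternatives were RLE, upper quartile and member-free TMM scaling, DESeq2 1.42.0, limma-voom (limma 3.58.1), no filter, 1 CPM in 3 samples, the replicate block, omission of each sample in turn and an adjusted p under 0.1. Replicate numbers 1, 3 and 4 occur in both groups. Deviations of same-numbered samples from their group means correlated at 0.35, 0.135 and 0.181 over all genes. Over the members alone the correlations were 0.0404, 0.257 and 0.475. Differently numbered samples were not compared, so these values do not settle whether the numbers pair the samples. The values printed come from the fit without the replicate block, and the blocked fit was an alternative. Same-group samples differed beyond counting noise. The members and lists were chosen with earlier results of these data known. All 37 members are named, with values in every sample for the leading ones of each role, and up to 3 genes of each other list with the smallest p, except a few items that are not reported here. Counts were also simulated from the mean levels and library sizes of these samples. EdgeR, run on 15696 genes, recovered 33 of 100 genes at a 2-fold and 82 of 100 at a 4-fold difference, with 5 false calls among 120. DESeq2, run on 15963 genes, recovered 44 of 100 and 84 of 100, with 22 false calls among 150. Its calls were thus false more often than the threshold of 0.05 states. The simulated spread depended on a gene's level only and the samples were independent. It thus lacks gene-specific spread and the outlying F10-intact sample 4, and the rates may differ in the real samples.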

Additional observations from a re-analysis of the deposited data

How the results depend on the processing

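Of 518 refits of single members, 474 kept the direction and the side of the threshold, 39 changed sign and 5 passed it. The 9 members at an unadjusted p under 0.05 kept their sign under every alternative, 14 each. They were picked by that p and refitted on the same samples, so the kept signs are no independent evidence. Members at that level and higher numbered 7 to 11 across alternatives. Members with separated groups numbered 10 with RLE, 11 with upper quartile and 14 with library totals alone. These counts were added after the values were seen. The share of all genes was not computed for most of these settings, so the changes in count cannot be read as particular to the members. With the replicate block, 14.4% of all genes had an unadjusted edgeR p under 0.05 in either direction, against 10.9% without it. All genes called numbered 7 and became 85 at an adjusted p under 0.1, 492 with DESeq2 (121 lower, 371 higher), 2 each with limma-voom, with the 1 CPM filter and with the replicate block, and 0 to 72 with a sample left out: 0 without F10-deleted sample 4 or F10-intact sample 3, 1 without F10-deleted sample 1, 18 without F10-deleted sample 3 and 72 without F10-intact sample 1. Members called numbered 0 and became 1 at an adjusted p under 0.1, 4 with DESeq2 and 0 to 1 with a sample left out. The 1 was Car12 without F10-intact sample 4, an omission for which the number of all genes called is not listed here. The replicate block called 0 members, as did the fit without it. The median log2 fold change ranged from 0.0779 to 0.217 for glycolytic enzymes and from 0.0356 to 0.279 for HIF targets with a sample left out. Gpi1 was at 0.00191 with RLE, 0.0129 with upper quartile, 0.00303 with DESeq2, 0.00652 without a filter and 0.00622 with the 1 CPM filter. Eno1 was at 0.00737, 0.0135, 0.00892, 0.0132 and 0.0126 in that order, and Slc16a3 at 0.00152 with upper quartile. With a sample left out, signs changed for 14 members, whose log2 fold changes ranged from -0.0228 to 0.155 for Hk1, -0.0418 to 0.0686 for Gpi1, -0.27 to 0.27 for Pfkl, -0.22 to 0.45 for Aldoc, -0.16 to 0.19 for Eno1, -0.0835 to 0.13 for Ldha, -0.19 to 0.0806 for Slc2a1, -0.26 to 0.19 for Slc16a3, -0.0451 to 0.16 for Pfkfb4, -0.28 to 0.14 for Adm, -0.11 to 0.0536 for Bnip3l, -0.0469 to 0.60 for Ndrg1, -0.0805 to 0.12 for P4ha1 and -0.30 to 0.0356 for Higd1a. The cause was not tested. Adm, Ankrd37 and Car9, the 3 members under 100 counts in some sample, are limited most by depth.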

Other observations

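Within enzyme families, shares of summed TPM describe which gene supplied most RNA in a sample. Hk2 took 54.0% to 63.8% of the TPM of Hk1, Hk2 and Hk3 in the F10-deleted samples and 56.7% to 64.7% in the F10-intact samples, ahead of Hk1 in every sample. Aldoa took at least 94.2% of the aldolase TPM in every sample. Pgam2 took 68.5%, 38.1% and 72.9% of the phosphoglycerate mutase TPM in F10-deleted samples 1, 3 and 4, against 16.7%, 0.524% and 0.604% in the F10-intact samples. Ldhb took 38.2% of the lactate dehydrogenase TPM in F10-deleted sample 3 and 4.48% to 21.1% in the other 5 samples. Among the HIF prolyl hydroxylases, Egln3 took 24.99%, 31.4% and 38.1% in the F10-deleted samples and 15.1%, 23.1% and 20.9% in the F10-intact samples. The groups were apart for Egln3, whereas the shares of Egln1 and Egln2 overlapped.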
